A study of Homo sapiens with 30 samples.

Results

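The 10 genes described here encode the cap-binding complex eIF4F, its cofactor eIF4B, its relatives and its repressors. They are the cap-binding proteins EIF4E and EIF4E2, the scaffolds EIF4G1, EIF4G2 and EIF4G3, the RNA helicases EIF4A1 and EIF4A2, the helicase cofactor EIF4B, and the repressors EIF4EBP1 and EIF4EBP2. They were listed by symbol and not picked by their values, although earlier results of these data were known when the list was made. All 10 had a value among the 16009 genes of the deposited table of transcription start regions. The study mapped N6,2′-O-dimethyladenosine (m6Am) at mRNA 5′ ends in MEL624, a human melanoma cell line, by m6Am-Exo-Seq, in which capped 5′ fragments are kept through an exonuclease step and pulled down with an antibody against methylated adenosine. The second stage of the study holds 12 libraries in 4 groups of 3, namely immunoprecipitated (IP) RNA from PCIF1 knockout (KO) cells, input RNA from KO cells, IP RNA from control cells and input RNA from control cells. The control cells were wild type for PCIF1 and carried a random guide RNA, and every IP used antibody 4, a mouse monoclonal. The labels call the 3 libraries of a group biological replicates. The first stage used 1 clonal KO line, and the sources used here do not say whether the second stage used other clones, so an effect of losing PCIF1 and a difference between clones cannot be told apart.

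Cap-dependent translation starts when eIF4E binds the mRNA cap and joins eIF4G, a scaffold that also holds the helicase eIF4A. The 4E-BPs, of which EIF4EBP1 and EIF4EBP2 encode 2 members, compete with eIF4G for eIF4E until the kinase mTORC1 phosphorylates them. When the first transcribed base beside the cap is A, PCIF1 can methylate it at the N6 position to give m6Am. The antibody also recognises m6A, so enrichment of a 5′ fragment is not a measure of m6Am alone. Several mRNAs of the translation machinery start instead with a C followed by a run of pyrimidines, the 5′ terminal oligopyrimidine (TOP) motif, and so start with a base that PCIF1 does not methylate.

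RefSeq start sites on GRCh38.p14 showed different first bases among these genes. The sequences below, read 5′ to 3′ on the coding strand, span the last 30 bases before the annotated start and the first 10 bases of the transcript, with the first transcribed base in capitals. They are shown for 4 members whose enrichment differed between genotypes, EIF4E2, EIF4G2, EIF4A2 and EIF4EBP2, and for 5 others that did not, and both starts are given for genes with 2.
EIF4E2, chr2:232550659-232550698, plus strand: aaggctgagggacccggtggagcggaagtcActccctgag
EIF4E2, second start, chr2:232551037-232551076, plus strand: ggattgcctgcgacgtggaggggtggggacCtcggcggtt
EIF4E, chr4:98929124-98929163, minus strand: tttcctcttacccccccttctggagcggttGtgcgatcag
EIF4G1, chr3:184314576-184314615, plus strand: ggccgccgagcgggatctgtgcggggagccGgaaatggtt
EIF4G2, chr11:10808917-10808956, minus strand: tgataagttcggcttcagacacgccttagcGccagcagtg
EIF4G2, second start, chr11:10807987-10808026, minus strand: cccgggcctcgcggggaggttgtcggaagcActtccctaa
EIF4G3, chr1:21176888-21176927, minus strand: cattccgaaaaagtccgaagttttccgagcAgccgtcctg
EIF4G3, second start, chr1:21111374-21111413, minus strand: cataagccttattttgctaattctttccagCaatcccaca
EIF4A1, chr17:7572795-7572834, plus strand: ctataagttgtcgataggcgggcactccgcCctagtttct
EIF4A2, chr3:186783547-186783586, plus strand: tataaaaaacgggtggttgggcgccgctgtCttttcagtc
EIF4B, chr12:53006426-53006465, plus strand: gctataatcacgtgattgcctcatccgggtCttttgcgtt
EIF4EBP2, chr10:70404115-70404154, plus strand: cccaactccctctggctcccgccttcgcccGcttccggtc

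Of 14 RefSeq starts read for 9 of the genes, 3 began with A, 5 with G, 5 with C and 1 with T. Over all 35116 RefSeq promoters, 44.4% began with A, 33.6% with G, 14.7% with C and 7.24% with T. A was the first base of 1 of the 2 starts of EIF4E2, of EIF4G3 and of EIF4G2. The other start began with C in EIF4E2 and EIF4G3 and with G in EIF4G2. EIF4G1 had 3 starts, with G, T and G, of which the most upstream is shown. A TOP motif, searched on the coding strand only as a first C followed by 4 pyrimidines, was read at 2 starts, those of EIF4A2 and EIF4B, against 4.07% of all promoters. These are annotated starts. Which base the MEL624 transcripts began with was not read from these data.

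Values are in CPM, the deposited depth-scaled read count, taken back from the deposited log2 CPM, so they are shares of a library. The reads in listed genes averaged 2032714 per library in KO IP, 3243409 in KO input, 4283508 in control IP and 3620471 in control input, which made KO IP the shallowest group and the least precise for weak genes. Enrichment is the log2 difference of IP minus input within a genotype, and the enrichment difference is that value in KO cells minus that in control cells. A gene was called when limma's adjusted p (Benjamini-Hochberg over 16009 genes) was under 0.05. The scale between IP libraries matters: when each library was centred on the median of 82 ribosomal protein mRNAs, the median enrichment difference of all genes moved to -1.03, against -0.06 as deposited, and the calls moved to 344 higher and 8400 lower, against 13% and 15.8% of all genes as deposited. This centring moved the enrichment difference of every gene by the same -0.97, so by construction it takes calls from genes above 0 rather than below, and leaves distances between genes as they were. Enrichment differences are therefore read against the median gene, and the members whose call or sign turned on this centring are given beside their values. The start region of PCIF1 itself averaged 75.1 ± 4.16 CPM in KO input, against 53.3 ± 4.27 CPM in control input (SD, n = 3 each; log2 difference 0.50 ± 0.14 SE, limma adjusted p = 0.0229). That call was lost under 6 of 21 alternative settings. The edit need not touch the counted start fragments, so this value checks neither the knockout nor the labels. Of 10 melanocyte markers 2 were measured, MITF and RAB27A, with a summed level of 14.8 to 17.2 CPM in KO input and 13.0 to 22.7 CPM in control input. The other 8, and 5 keratinocyte and 5 fibroblast markers, had no row matched by symbol in the deposited table, whose filter is not given.

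The same 12 libraries gave 5 comparisons, which share libraries with each other. In KO cells 7 of the 10 genes were called between IP and input, 3 higher and 4 lower in IP, where 59.4% of all genes were called, 28.4% higher and 31% lower. The IP and input libraries did not overlap for 6 of the 10 genes in KO cells, against 61.3% of all genes. In control cells 6 were called, 2 higher and 4 lower, where 55.9% of all genes were called, 27.7% higher and 28.2% lower, and libraries did not overlap for 9 of the 10, against 66.5% of all genes. The enrichment difference was called for 5 of 10, with EIF4E2, EIF4A2 and EIF4EBP2 higher and EIF4G2 and EIF4EBP1 lower in KO cells, against 28.8% of all genes, 13% higher and 15.8% lower. KO IP and control IP differed for 7 of 10, 4 higher and 3 lower, against 49% of all genes, 23% higher and 26% lower, and libraries did not overlap for 7 of 10, against 54.6% of all genes. KO input and control input differed for 1 of 10, EIF4A2, which was lower, against 11.2% of all genes, 5.56% higher and 5.67% lower. The median over the 10 genes was 0.01 for the enrichment difference (all genes -0.06), -0.14 for the input difference (all genes -0.02) and -0.12 for the IP difference (all genes -0.04). The shares called in IP against input thus lay near those of all genes, and the 10 genes did not move in 1 direction.

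**Figure D1:**
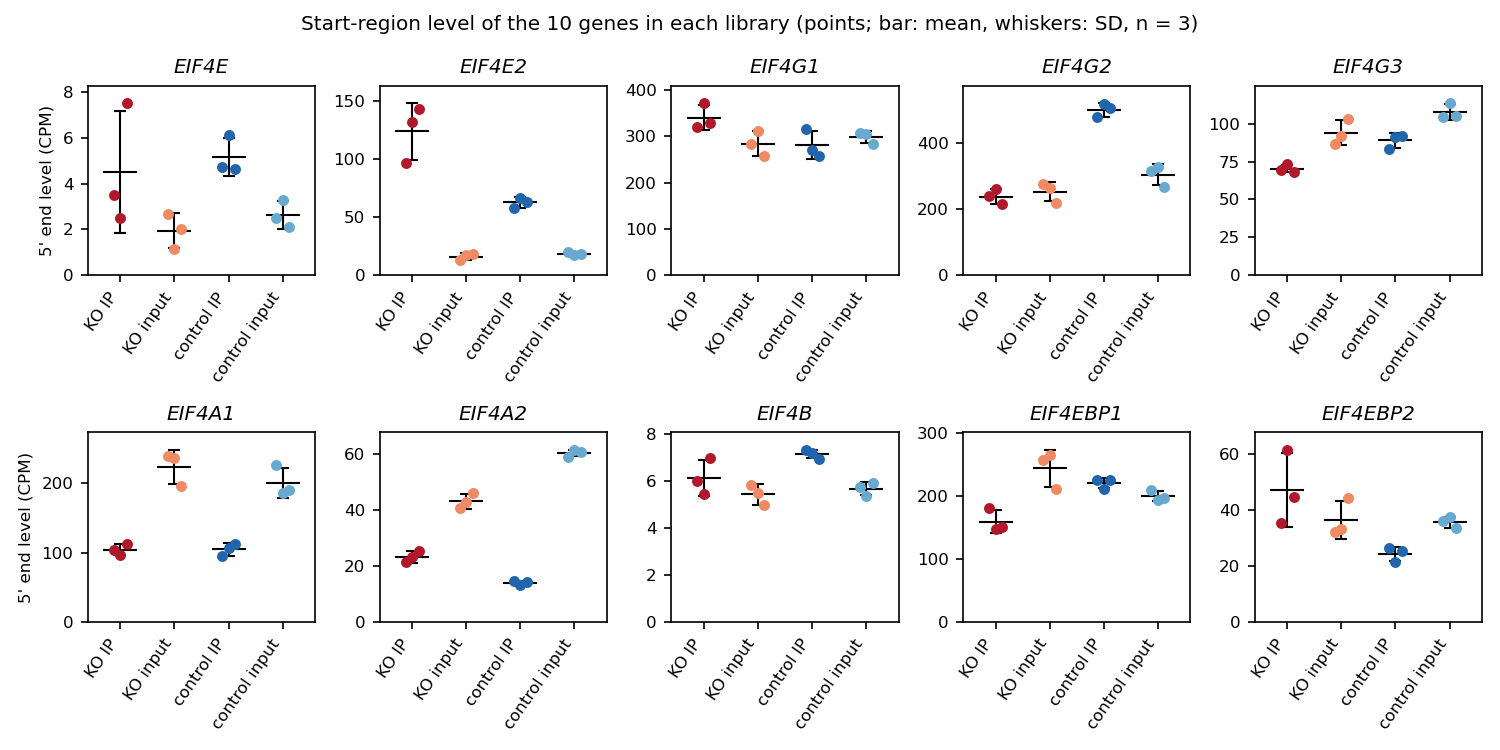
Start-region level (CPM, linear axis from 0, own scale for each gene) of the 10 genes in each of 3 libraries per group; horizontal bars are means and whiskers SD. The KO IP points of EIF4E2 and EIF4EBP2 lie above the control IP points, those of EIF4G2 and EIF4EBP1 lie below, and EIF4A2 is lower in KO input than in control input.

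EIF4E2 (4EHP), a cap-binding relative of eIF4E that does not join eIF4G and represses the mRNAs it holds, was the most enriched of the 10 genes in both genotypes. Its 3 libraries held 96.7, 133 and 143 CPM in KO IP and 13.0, 17.1 and 18.3 CPM in KO input. In control cells they held 58.1, 66.98 and 63.5 CPM in IP and 20.0, 17.3 and 18.5 CPM in input. All IP libraries lay above all inputs, and all KO IP libraries above all control IP libraries, while the inputs of the genotypes overlapped. Enrichment was 2.94 ± 0.16 in KO cells (limma adjusted p = 5.42e-12) and 1.76 ± 0.16 in control cells (adjusted p = 8.37e-09; log2 ± SE). The enrichment difference was 1.18 ± 0.22 (adjusted p = 0.000447), higher than in 87.0% of all genes. Centred on ribosomal protein mRNAs it was 0.20 (adjusted p = 0.527), which is 1.24 above the median gene of that scale. The input difference was -0.22 ± 0.16 (adjusted p = 0.447). The gene lies at chr2:232550659-232583644 (hg38, plus strand), and TIGD1 and MIR5001 start 102 and 86 bases away on the other strand. TIGD1 had 11.4 CPM in KO IP, 11.99 in KO input, 8.19 in control IP and 9.58 in control input. Its enrichment difference was 0.17 ± 0.36 (adjusted p = 0.755), and that of MIR5001 was 0.30 ± 0.31 (adjusted p = 0.517). KO IP was higher than control IP by 0.60 ± 0.22 for MIR5001 (limma adjusted p = 0.0308). For TIGD1 that IP difference was 0.50 ± 0.25 and was not called (adjusted p = 0.114).

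EIF4E, the cap-binding subunit of eIF4F (chr4:98879276-98929133, minus strand), gave too few start reads for a comparison of genotypes. It had 3.51, 2.51 and 7.52 CPM in KO IP and 2.66, 1.16 and 2.02 CPM in KO input, against 4.73, 6.11 and 4.65 CPM in control IP and 2.49, 3.28 and 2.12 CPM in control input. These values rest on 4 to 23 reads per library, and the genotypes overlapped in IP and in input. Enrichment was 1.14 ± 0.45 in KO cells (limma adjusted p = 0.0346) and 0.98 ± 0.45 in control cells (adjusted p = 0.0680). The control enrichment was called under 7 of 20 settings, such as centring on the median gene (adjusted p = 0.0452), voom (0.0207) and a fit of the 6 control libraries alone (0.0210). The KO call rested on single libraries: without 1 KO IP library, numbered 3, it was 0.69 (adjusted p = 0.197), and without the KO input library numbered 2 it was 0.80 (adjusted p = 0.159). It was also lost without KO input 3 (adjusted p = 0.0507) and in a fit of the 6 KO libraries alone (adjusted p = 0.118). The enrichment difference of 0.15 had a 95% interval of -1.17 to 1.47, which runs past 1 log2 unit in both directions, so a change of that size was not detectable at this depth. Its sign turned with ribosomal protein centring (-0.82, adjusted p = 0.277).

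The scaffolds went different ways. EIF4G2 (DAP5, p97), a relative of eIF4G1 that lacks the eIF4E-binding region, was lower in the IP of KO cells than in that of control cells. It had 238, 260.1 and 215 CPM in KO IP and 278, 263 and 220 CPM in KO input, against 478, 518 and 506 CPM in control IP and 316, 327 and 268 CPM in control input. The highest KO IP library was below the lowest control IP library, and the inputs overlapped. EIF4G2 was enriched in control cells (0.72 ± 0.11, limma adjusted p = 6.89e-06) and was not called in KO cells (-0.09 ± 0.11, adjusted p = 0.486). The enrichment difference was -0.81 ± 0.15 (adjusted p = 0.000365), lower than in all but 16.7% of genes, and it was called lower under each setting tried. Under ribosomal protein centring it was -1.79 (adjusted p = 1.36e-07), which lies -0.76 from the median gene of that scale. In input the difference was -0.26 ± 0.11 (adjusted p = 0.123), and it was called under 1 of 21 settings, the replicate block over all libraries (adjusted p = 0.0372). EIF4G2 lies at chr11:10797050-10808940 on the minus strand, and its 2 RefSeq starts shown above begin with G and with A.

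EIF4G1, the main scaffold of eIF4F (chr3:184314495-184335358, plus strand), stayed near its input level in the IP of both genotypes. It had 320, 371 and 329 CPM in KO IP and 282, 312 and 258 CPM in KO input, against 315, 271 and 257 CPM in control IP and 306, 304 and 283 CPM in control input. The lowest KO IP library was above the highest control IP library by a few CPM. The KO enrichment of 0.26 ± 0.10 passed the threshold (limma adjusted p = 0.0281) and the control enrichment of -0.09 ± 0.10 did not (adjusted p = 0.469). The KO call was lost under 5 of 21 alternative settings, with an adjusted p of up to 0.129. The difference between them, 0.35 ± 0.14, was not called (adjusted p = 0.0667, 95% interval 0.06 to 0.64). It was called, still higher in KO cells, under 5 of 20 alternatives, namely with the replicate block within each genotype (adjusted p = 0.0103), with voom (0.0461), at a mean log2 CPM of at least 3 (0.0450), without KO input 2 (0.0401) and without control IP 1 (0.0300). With ribosomal protein centring it was -0.62 (adjusted p = 0.00711), which is 0.41 above the median gene of that scale.

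EIF4G3, a close relative of EIF4G1 (chr1:20806292-21177285, minus strand), had 69.7, 73.1 and 68.2 CPM in KO IP and 86.7, 92.1 and 103 CPM in KO input, against 83.5, 91.4 and 92.0 CPM in control IP and 105, 113 and 105 CPM in control input. Its IP libraries lay below its inputs in both genotypes, and its KO libraries below the control libraries in both fractions. Enrichment was -0.41 ± 0.10 in KO cells (limma adjusted p = 0.00121) and -0.28 ± 0.10 in control cells (adjusted p = 0.0222). The KO call was lost with ribosomal protein centring (-0.18, adjusted p = 0.329). The control call was lost without control IP 1 or control input 2 and with centring on the median gene. The enrichment difference of -0.14 ± 0.14 was not called (adjusted p = 0.493, 95% interval -0.43 to 0.15). With ribosomal protein centring the enrichment difference was called at -1.11 (adjusted p = 0.000138), close to the median gene of that scale at -1.03, and control enrichment turned to 0.93. Its 2 annotated starts begin with A and with C, as do those of EIF4E2, and the 2 genes differed in the sign of their enrichment in both genotypes as deposited.

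The helicases EIF4A1 and EIF4A2 encode nearly identical proteins, and both were depleted by the antibody. EIF4A1, the main eIF4A of growing cells (chr17:7572824-7579006, plus strand), had 104, 96.5 and 113 CPM in KO IP and 240, 237 and 196 CPM in KO input, against 94.4, 107 and 113 CPM in control IP and 226, 185 and 190 CPM in control input. Genotypes overlapped in both fractions, and IP lay below input in both. Enrichment was -1.10 ± 0.11 in KO cells (limma adjusted p = 4.31e-08) and -0.94 ± 0.11 in control cells (adjusted p = 4.14e-07). The difference between genotypes was -0.16 ± 0.16 (adjusted p = 0.471, 95% interval -0.49 to 0.16). Ribosomal protein centring gave a called -1.14 (adjusted p = 9.98e-06), which is 0.11 below the median gene of that scale, and control enrichment then turned to 0.27. The lncRNA ENSG00000264772 starts 2 bases from EIF4A1 on the same strand and had 98.1 CPM in KO IP, 217 in KO input, 101.2 in control IP and 194 in control input, so reads of the pair cannot be told apart. The gene SENP3-EIF4A1 also spans this start on the same strand, with its own 5′ end 9537 bases away. It had 277 CPM in KO IP, 138 in KO input, 140 in control IP and 127 in control input. Its enrichment difference was 0.86 ± 0.15 (limma adjusted p = 0.000193), unlike that of EIF4A1.

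EIF4A2, whose annotated start carries a TOP motif, was the most depleted of the 10 genes in control cells and less so in KO cells. It had 21.2, 23.0 and 25.3 CPM in KO IP and 40.5, 42.8 and 45.9 CPM in KO input, against 14.5, 12.9 and 14.04 CPM in control IP and 58.9, 61.2 and 60.5 CPM in control input. No 2 groups overlapped. KO cells were higher than control cells in IP and lower in input. Enrichment was -0.90 ± 0.13 in KO cells (limma adjusted p = 5.04e-06) and -2.12 ± 0.13 in control cells (adjusted p = 3.39e-11). The enrichment difference of 1.22 ± 0.18 (adjusted p = 4.53e-05) was higher than in 87.7% of all genes. With ribosomal protein centring it was 0.25 (adjusted p = 0.386), which is 1.28 above the median gene of that scale. The gene spans chr3:186783205-186789897 on the plus strand, and its canonical start lies 372 bases downstream of the 5′ end of the gene record.

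Input levels of EIF4A2 fell by 0.48 ± 0.13 on the log2 scale in KO cells (limma adjusted p = 0.0169), to 43.1 ± 2.68 CPM, against 60.2 ± 1.19 CPM in control input (SD, n = 3 each). The KO and control libraries did not overlap for 3 of the 10 genes in input, EIF4A2, EIF4G3 and EIF4EBP1, where 31.7% of all genes did not overlap. The call for EIF4A2 was lost with ribosomal protein centring (-0.45, adjusted p = 0.120) and without any 1 of 4 libraries, KO input 1 or 2 or control input 2 or 3, with an adjusted p of 0.0505 to 0.0717. On leaving out any 1 library the change was -0.53 to -0.44. The 59 measured genes within 5 Mb had a median input change of -0.15 (all genes -0.02). By limma 5 were lower and 0 higher, where 5.67% of all genes were lower and 5.56% higher. The 59 include the 5 small nucleolar RNA genes that lie inside EIF4A2, and 4 of those are among the 5 called lower. The counts are therefore not separate from the EIF4A2 locus. At an unadjusted p under 0.05, 10 were lower and 5 higher, and with voom 7 were lower and 2 higher. These counts were not tested against the shares of all genes. An input level is a share of start reads, and fewer transcripts, another start and a change of copy number cannot be told apart.

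EIF4B (chr12:53006282-53042215, plus strand), which stimulates the eIF4A helicase and also has an annotated TOP start, was weak, with 11 to 31 reads per library. It had 5.96, 5.43 and 6.94 CPM in KO IP and 5.81, 5.49 and 4.95 CPM in KO input, against 7.30, 7.16 and 6.93 CPM in control IP and 5.72, 5.35 and 5.91 CPM in control input. Control IP lay above control input, the KO fractions overlapped, and no comparison was called as deposited. Enrichment was 0.17 ± 0.26 in KO cells (limma adjusted p = 0.589) and 0.33 ± 0.26 in control cells (adjusted p = 0.286). The enrichment difference of -0.16 had a 95% interval of -0.92 to 0.60 (adjusted p = 0.773), and ribosomal protein centring gave -1.14 (adjusted p = 0.0180). The 2 members with a TOP start, EIF4A2 and EIF4B, thus had control enrichments of -2.12 and 0.33.

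**Figure D2:**
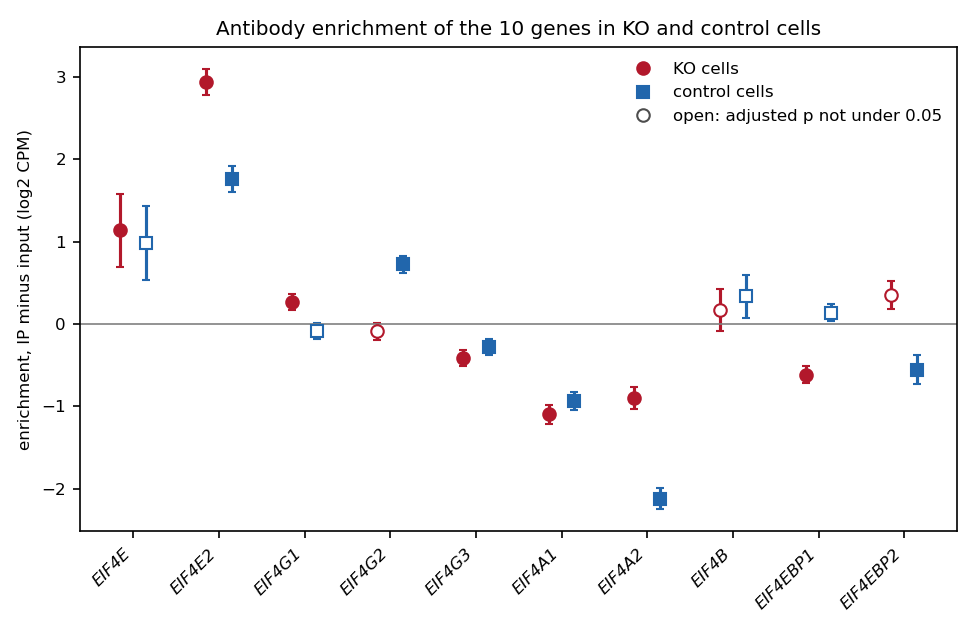
Enrichment by the antibody (IP minus input, log2 CPM) of each gene in KO cells (circles) and control cells (squares), with SE from limma over 12 libraries; open symbols had an adjusted p not under 0.05. EIF4E2 is highest in both genotypes, and EIF4A2 is lowest in control cells at -2.12. The circle and square of EIF4G1, EIF4G2, EIF4EBP1 and EIF4EBP2 lie on different sides of 0.

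The repressors moved in opposite directions as deposited, on either side of the median gene. Centring leaves their distances from that gene as they were by construction. EIF4EBP1 (4E-BP1, chr8:38030534-38060365, plus strand), a main mTORC1 substrate, had 180.1, 147 and 150.04 CPM in KO IP and 256, 265 and 210.2 CPM in KO input. In control cells it had 225, 210.3 and 225 CPM in IP and 209, 193 and 197 CPM in input. KO cells were below control cells in every IP library and above them in every input library, where the lowest KO library was close to the highest control library. Enrichment was -0.61 ± 0.10 in KO cells (limma adjusted p = 3.39e-05) and 0.14 ± 0.10 in control cells (adjusted p = 0.266). The enrichment difference was -0.75 ± 0.14 (adjusted p = 0.000594) and was called lower under each setting tried. Under ribosomal protein centring it was -1.73 (adjusted p = 7.55e-08), which lies -0.70 from the median gene of that scale. The input difference of 0.28 ± 0.10 was not called (adjusted p = 0.0880). It was called, higher in KO cells, under 3 of 21 settings. These were without KO input 3 (adjusted p = 0.0214), with the replicate block over all libraries (0.0410) and with voom (0.0412).

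EIF4EBP2 (4E-BP2, chr10:70404145-70428618, plus strand), a second protein of the same kind, had 35.4, 61.4 and 44.7 CPM in KO IP and 31.9, 33.1 and 44.3 CPM in KO input, against 26.2, 21.3 and 25.2 CPM in control IP and 35.8, 37.4 and 33.3 CPM in control input. The KO IP libraries spread most, and the lowest of them was above the highest control IP library. Enrichment was 0.35 ± 0.18 in KO cells (limma adjusted p = 0.0905) and -0.56 ± 0.18 in control cells (adjusted p = 0.0108), the second of which was lost without control IP 2 (adjusted p = 0.0572). Control enrichment was called higher with ribosomal protein centring, at 0.65 (adjusted p = 0.00926). The KO enrichment was called under 4 of 21 settings, with centring on the median gene (0.42, adjusted p = 0.0410) or on ribosomal protein mRNAs (0.59, adjusted p = 0.0227), without KO IP 1 (0.54, adjusted p = 0.0114) and without KO input 3 (0.50, adjusted p = 0.0276), and it was 0.14 to 0.54 on leaving out 1 library. The enrichment difference was 0.91 ± 0.25 (adjusted p = 0.00927), higher than in 82.6% of all genes. Centred on ribosomal protein mRNAs its sign turned, to -0.07 (adjusted p = 0.867), which is 0.96 above the median gene of that scale. The input did not differ detectably (0.02 ± 0.18, adjusted p = 0.961, 95% interval -0.34 to 0.39).

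Set against each other directly, the IP libraries of KO and control cells differed for 7 of the 10 genes, against 49% of all genes. By limma, KO IP was higher for EIF4E2 (0.96 ± 0.16, adjusted p = 4.17e-05), EIF4EBP2 (0.93 ± 0.18, adjusted p = 0.000213), EIF4A2 (0.74 ± 0.13, adjusted p = 8.72e-05) and EIF4G1 (0.28 ± 0.10, adjusted p = 0.0253). The EIF4G1 call was lost without the mean-variance trend (adjusted p = 0.0788), without KO IP 2 (0.116), without control IP 2 (0.0829) and without control IP 3 (0.123). It was lower for EIF4G2 (-1.08 ± 0.11, adjusted p = 8.52e-08), EIF4EBP1 (-0.47 ± 0.10, adjusted p = 0.000805) and EIF4G3 (-0.34 ± 0.10, adjusted p = 0.00789). With ribosomal protein centring the 4 that were higher had values of 0.03, -0.0068, -0.20 and -0.66, where the median gene was at -0.98. Of these EIF4G1 was called lower (adjusted p = 0.000132). The 3 that were lower as deposited stayed lower by construction, since this centring moved the IP difference of every gene by the same -0.94.

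**Figure D3:**
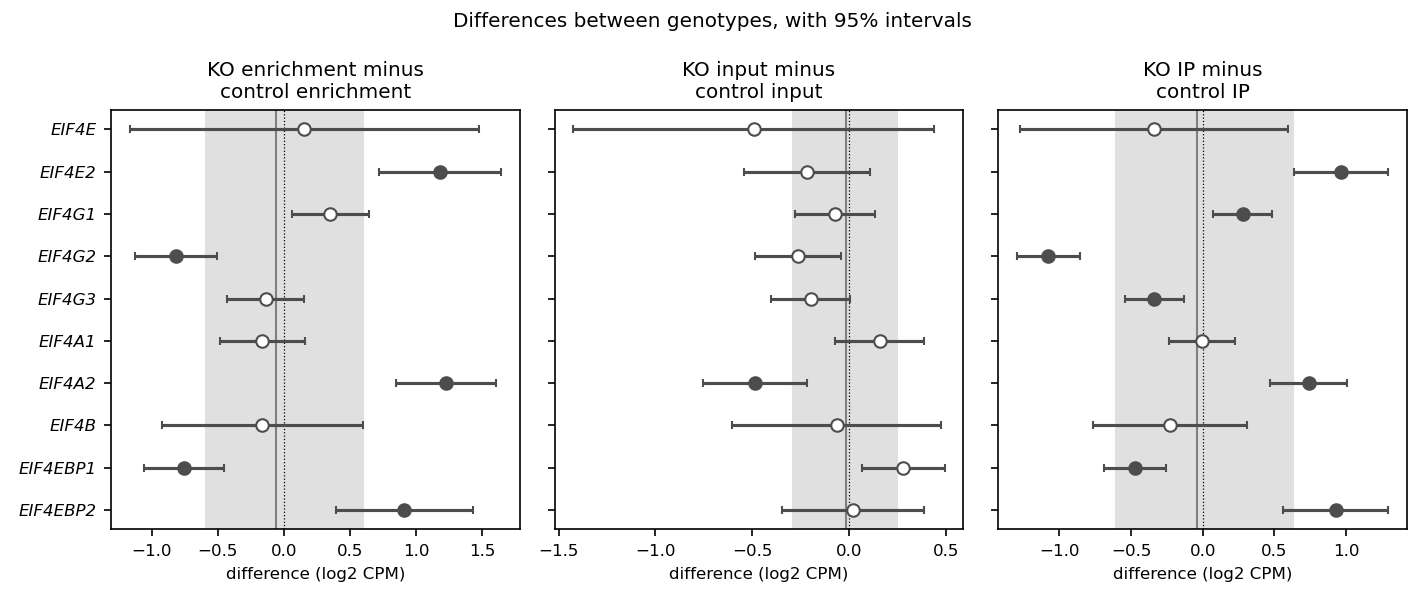
Difference between genotypes (KO minus control, log2 CPM) of each gene for the enrichment (left), the input (middle) and the IP (right); points are limma estimates over 12 libraries with 95% intervals, filled where the adjusted p was under 0.05, the grey band spans the quartiles of all genes and the grey line is their median. EIF4E2, EIF4A2 and EIF4EBP2 lie above 0 for the enrichment difference, EIF4G2 and EIF4EBP1 below, as deposited (EIF4EBP2 is at -0.07 with ribosomal protein centring), and the input differences stay between -0.49 and 0.28.

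Ratios of relatives within the same library do not depend on how libraries are scaled. Only their differences between groups are read here, because the level of a ratio depends on the counted window of each gene. The log2 ratio of EIF4A2 to EIF4A1 was -2.17 ± 0.11 in KO IP and -2.37 ± 0.25 in KO input, against -2.92 ± 0.19 in control IP and -1.73 ± 0.18 in control input (SD, n = 3 each). The KO cells were thus 0.74 higher in IP and 0.64 lower in input on the log2 scale, with no overlap of libraries in either fraction. The ratio of EIF4EBP2 to EIF4EBP1 was -1.78 ± 0.54 in KO IP and -2.75 ± 0.44 in KO input, against -3.19 ± 0.10 in control IP and -2.49 ± 0.11 in control input. It was 1.40 higher in KO IP than in control IP without overlap, and the inputs overlapped. The ratio of EIF4G2 to EIF4G1 was -0.52 ± 0.10 in KO IP and -0.17 ± 0.12 in KO input, against 0.84 ± 0.20 in control IP and 0.02 ± 0.10 in control input. KO IP was below control IP by 1.35 without overlap, so EIF4G2 start fragments were 0.39 times as frequent relative to EIF4G1 in KO IP as in control IP. The ratio of EIF4G3 to EIF4G1 was 0.62 lower in KO IP than in control IP, also without overlap. Each of these IP differences had a two-sided exact permutation p of 0.1, the smallest that 3 libraries against 3 allow. For the inputs the exact permutation p was 0.1 for EIF4A2 to EIF4A1, 0.4 for EIF4EBP2 to EIF4EBP1, 0.2 for EIF4G2 to EIF4G1 and 0.4 for EIF4G3 to EIF4G1.

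**Figure D4:**
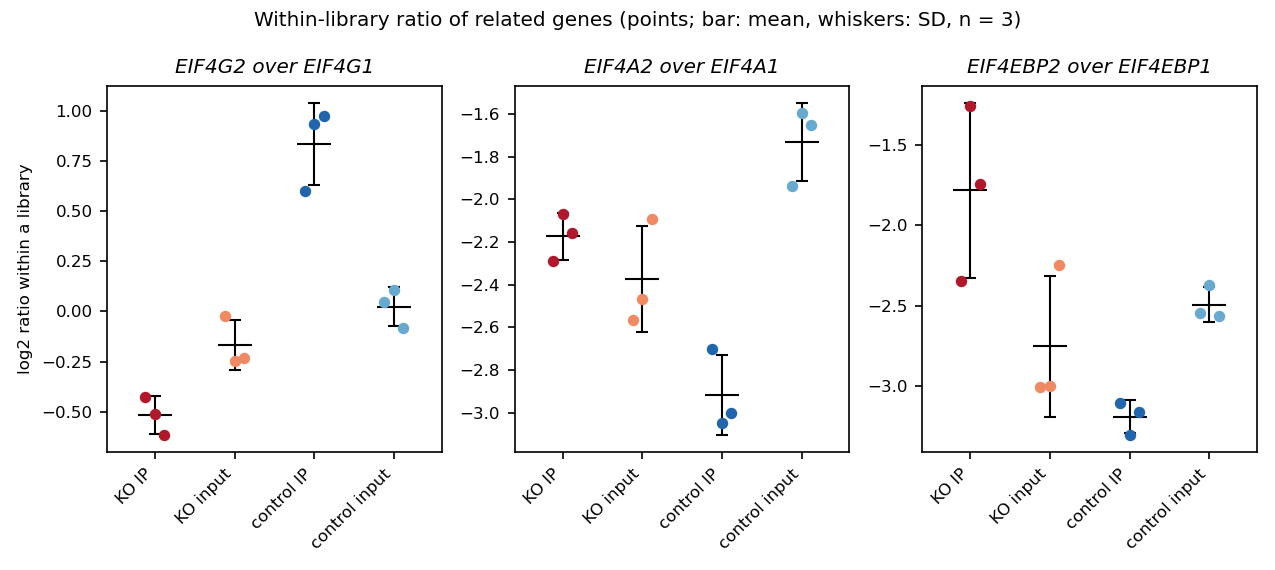
Log2 ratio of start-region levels of related genes within each library (points), by group, with the group mean and SD (n = 3). KO IP and control IP do not overlap in any of the 3 ratios plotted, and of these EIF4A2 to EIF4A1 alone separates KO input from control input.

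Small nucleolar RNA (snoRNA) genes lie inside 3 of the 10 genes. EIF4A2 holds 5, EIF4A1 holds 3 and EIF4G1 holds 1. SnoRNAs, which guide the modification of other RNAs, are trimmed from the introns of their hosts. Reads of a snoRNA and of unspliced host RNA cannot be told apart in these counts. In input all 9 had estimates below 0, and 4 of the 5 EIF4A2 snoRNAs were called lower in KO cells. Of the 4 snoRNAs in EIF4A1 and EIF4G1, 0 were called by limma, 0 had an unadjusted p under 0.05 and 0 were called with voom. Of all 211 snoRNAs measured 19 were called lower, and the median change of the 211 was -0.17. SNORA63B averaged 11.5 ± 0.30 CPM in KO input, against 30.2 ± 7.31 CPM in control input (log2 change -1.37 ± 0.19 SE, limma adjusted p = 6.82e-05). SNORD2 averaged 18.9 ± 2.20 CPM in KO input, against 43.0 ± 6.05 CPM in control input (-1.18 ± 0.23, adjusted p = 0.00209). These 2 calls held under each setting tried. SNORA4 (-0.86 ± 0.22, adjusted p = 0.0155) and SNORA63 (-0.52 ± 0.16, adjusted p = 0.0393) lost theirs under 3 and 8 of 21 settings. SNORA81 was at 1.09 ± 0.69 CPM in KO input and 1.85 ± 0.64 CPM in control input, and its change of -0.98 ± 1.04 was not called (adjusted p = 0.640).

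In the IP the hosted snoRNAs moved as most of their class did. The enrichment difference was higher in KO cells for 8 of the 9, all but SNORA81, and for 62.6% of all 211 snoRNAs, whose median was 1.60. Under that centring on ribosomal protein mRNAs SNORA48 (0.60, adjusted p = 0.312) and SNORA63 (0.48, adjusted p = 0.127) lost their call, and SNORA48 also without control input 1 (adjusted p = 0.0584). SNORD10 in EIF4A1 averaged 433 ± 61.9 CPM in KO IP and 333 ± 27.4 CPM in KO input, against 131 ± 14.8 CPM in control IP and 379 ± 53.6 CPM in control input. Its enrichment difference was 1.90 ± 0.17 (limma adjusted p = 2.05e-07), where that of its host EIF4A1 was not called.

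**Figure D5:**
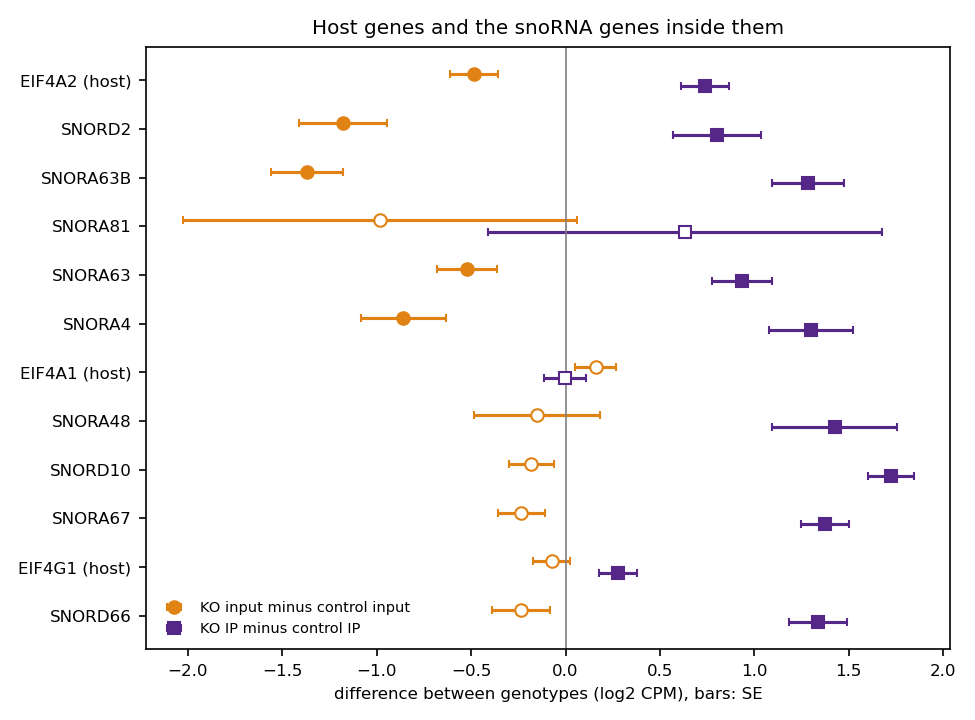
Differences between genotypes (KO minus control, log2 CPM) in input (circles) and IP (squares) for 3 host genes and the 9 snoRNA genes inside them, with SE from limma; open symbols had an adjusted p not under 0.05. EIF4A2 and all 9 snoRNAs lie below 0 in input, where EIF4A2 and 4 of its 5 snoRNAs were called. All 9 snoRNAs lie above 0 in IP.

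Other genes of cap-dependent translation were counted from lists taken by function. Of 19 measured genes whose products act with eIF4F at the cap, the enrichment difference was higher for 3 and lower for 3, with a median of 0.10. The poly(A)-binding proteins PABPC1 and PABPC4, which bind eIF4G, had enrichment differences of 1.26 ± 0.15 (limma adjusted p = 2.92e-06) and 1.01 ± 0.14 (adjusted p = 2.46e-05). PABPC1 averaged 2835 CPM in KO IP and 2299 in KO input, against 1352 in control IP and 2638 in control input. That of MKNK2, an eIF4E kinase, was 0.87 ± 0.15 (adjusted p = 0.000156), and that of DDX3X, a helicase that acts with eIF4F, was -1.02 ± 0.13 (adjusted p = 1.36e-05). With ribosomal protein centring the calls of PABPC1 (0.29, adjusted p = 0.279), PABPC4 (0.04, adjusted p = 0.889) and MKNK2 (-0.11, adjusted p = 0.678) were lost, and DDX3X kept its call. In input 1 of the 19 was higher and 2 lower. The input level of PDCD4, an inhibitor of eIF4A, fell by 0.43 ± 0.11 (adjusted p = 0.0119) and that of MKNK2 by 0.40 ± 0.10 (adjusted p = 0.0132); both calls were lost with ribosomal protein centring.

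Of 18 other initiation factors the enrichment difference was higher for 1 and lower for 3, with a median of 0.03, and 0 were called in input by limma (2 at an unadjusted p under 0.05, 1 with voom). EIF6, which keeps ribosomal subunits apart, averaged 50.5 CPM in KO IP and 212 in KO input, against 131 CPM in control IP and 238 in control input, an enrichment difference of -1.21 ± 0.17 (limma adjusted p = 2.41e-05). It was -1.18 ± 0.15 for EIF2B3, a subunit of the eIF2 exchange factor (adjusted p = 9.93e-06), and -0.73 ± 0.12 for EIF1AX, a factor of start codon scanning (adjusted p = 0.000192). For EIF2A, a tRNA-binding factor, it was 1.19 ± 0.39 (adjusted p = 0.0268), a call that was lost under 8 of 20 settings.

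Of 20 genes of the mTORC1 pathway the enrichment difference was higher for 1 and lower for 4, with a median of -0.13. LAMTOR1 (-1.14 ± 0.19, limma adjusted p = 0.000156) and LAMTOR4 (-1.18 ± 0.23, adjusted p = 0.000612), subunits of the Ragulator that holds mTORC1 at the lysosome, were less enriched in KO than in control cells, as was the S6 kinase RPS6KB2 (-0.87 ± 0.21, adjusted p = 0.00370). The enrichment difference of RRAGD, a Rag GTPase, was 0.77 ± 0.20 (adjusted p = 0.00726) and turned to -0.20 with ribosomal protein centring. In input 3 were higher and 2 lower: RRAGC, another Rag GTPase, averaged 37.5 CPM in KO input, against 23.5 CPM in control input (0.67 ± 0.13, adjusted p = 0.00223), and AKT1S1, the mTORC1 inhibitor PRAS40, averaged 44.5 CPM in KO input, against 66.1 CPM in control input (-0.58 ± 0.12, adjusted p = 0.00288). Of 6 nuclear cap-binding genes 0 were higher and 2 lower by limma for the enrichment difference, as also at an unadjusted p under 0.05 and with voom. It was -0.90 ± 0.16 for NCBP3 (adjusted p = 0.000271) and -0.79 ± 0.29 for CTIF (adjusted p = 0.0436), a call lost under 10 of 20 settings. SRRT, a partner of the nuclear cap-binding complex, fell in input by 0.75 ± 0.15 (adjusted p = 0.00209), while NCBP3 rose there by 0.43 ± 0.11 (adjusted p = 0.0172), a call lost under 6 of 21 settings. Over all genes the enrichment difference was higher for 13% and lower for 15.8%, and the input difference was higher for 5.56% and lower for 5.67%. These small lists were not tested against those shares.

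Over the 12 libraries the profile most like that of EIF4E2, by Pearson's r of log2 CPM among 9266 genes, was that of TOP2A (r = 0.996), followed by CDK19 and WDR6 (r = 0.990 each). WDR6 averaged 1033 CPM in KO IP and 119 in KO input, against 525 in control IP and 147 in control input. The profiles most like that of EIF4A2 were those of MIR6777 and GLI4 (r = 0.988 each) and EML3 (r = 0.987). These values describe libraries that share groups and depth.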

How the data were processed

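Per the labels' protocols, mRNA from 200 ug of total RNA of MEL624 cells was used, and libraries came from a directional kit. The deposited table holds log2 CPM per gene at the transcription start, made by the authors on build hg38. The submitters' processing notes list, with no role or order, edgeR 3.12.1 in R 3.3.3, featureCounts, deepTools 3.0.2, SAMtools 1.7 and the aligner HISAT2 2.0.4. No source used here gives the counted window, annotation, strand setting or filter, so reads of overlapping genes and pseudogene copies cannot be told apart. The 18 first-stage samples were not analysed here.

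Column names gave the group but not which lettered replicate a column was, and 0 columns were left out. Whole reads were recovered from the log2 values with an added count of 0.25 (100% of values whole within 0.01 reads), and 1 read was worth 0.229 to 0.572 CPM. No 2 libraries of a group agreed within sampling noise (chi-square per gene 2.00 to 4.88). A single limma fit (limma 3.58.1, R 4.3.3, trended variance, adjusted p by Benjamini-Hochberg) on the log2 values of all 12 libraries gave 5 contrasts. Genes at a log2 CPM of 0 or more in at least 3 libraries were kept, which all 16009 were. Fold changes of weak genes are understated by the added count. Intervals are 95%. Each contrast was tested on simulated data with changes planted in 1 group it uses.

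Gene positions came from GENCODE 44 on hg38, start sequences from RefSeq on GRCh38.p14. The members and gene lists were chosen with earlier results of these data known. Named from each list were the up to 4 genes with the smallest adjusted p for the enrichment difference and the up to 2 for the input difference, if called, and the 3 profiles most like EIF4A2 and EIF4E2. Alternatives were other scalings, fits, added counts, a voom fit on the recovered reads, a replicate block and leaving out each library. If libraries of a group are not from separate cultures, p-values measure technical spread only.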

Additional observations from a re-analysis of the deposited data

Results flagged for a closer look

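By the interaction term of the limma fit, antibody enrichment differed between KO and control cells for 5 of the 10 genes. Of all genes 28.8% were called, 13% higher and 15.8% lower. The enrichment difference (KO minus control, log2) was 1.18 for EIF4E2, 1.22 for EIF4A2 and 0.91 for EIF4EBP2, and it was -0.81 for EIF4G2 and -0.75 for EIF4EBP1. Centring on ribosomal protein mRNAs moved each of the 5 by -0.97, by construction the same for every gene. With that shift the 3 positive calls were lost and the 2 negative ones kept. The size of the shift came from the 82 ribosomal protein mRNAs, and 344 genes were called higher under it. KO IP was the shallowest group, and its part in these differences was not tested.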

How the results depend on the processing

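Among the 22 settings, the fit with no filter repeated the main fit, because all 16009 genes passed the filter. Leaving out a library that a comparison does not use left its estimate unchanged, so its direction could not turn. Both kinds are counted below and in the shares of settings given above. Over 22 settings, 952 of 1030 recomputed values of the 10 genes kept direction and side of the threshold, 26 lost a call, 29 gained one and 23 changed sign. Of these 78 changes, 26 came from centring on ribosomal protein mRNAs, which makes one class of mRNA constant and moves every gene by the same amount by construction. That centring gave 8744 genes called for the enrichment difference and 1134 in input, with 0 of the 10 genes called in input. Signs then turned for KO enrichment of EIF4G2 (0.15), control enrichment of EIF4G1 (1.12), EIF4G3 (0.93), EIF4A1 (0.27) and EIF4EBP2 (0.65), the enrichment difference of EIF4E (-0.82), EIF4G1 (-0.62), EIF4EBP2 (-0.067), MKNK2 (-0.11) and RRAGD (-0.20), and the IP difference of EIF4G1 (-0.66), EIF4A2 (-0.20) and EIF4EBP2 (-0.0068). Centring on the median gene turned control enrichment of EIF4G1 from -0.088 to 0.010 and the IP difference of EIF4A1 from -0.0032 to 0.0055. By construction it moved every gene by the same amount, 0.099 for control enrichment and 0.0087 for the IP difference. Leaving out 1 library gave 1177 to 2201 genes and 0 to 2 of the 10 called in input. The values that changed sign on leaving out 1 library were the enrichment difference of EIF4E (-0.29 to 0.50), the input difference of EIF4EBP2 (-0.13 to 0.11) and SNORA48 (-0.29 to 0.079), and the IP difference of EIF4E (-0.79 to 0.0040) and EIF4A1 (-0.075 to 0.052), all uncalled. Voom called 4927 genes for the enrichment difference and 2481 in input. Calls in input numbered 2 of the 10 with voom and 3 with the replicate block over all libraries. Both were chosen after seeing the data. After each gene's group mean was taken off, the deviations of same-numbered IP and input columns of a genotype correlated by 0.0697 to 0.244. This was over 0.1 in 4 of 6 pairs, and each IP correlated best with its own number, a hint from the data and not the design. EIF4E and EIF4B, at 4 to 31 reads, are limited by depth.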
